A study of Mus musculus with 12 samples.

Results

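Gene expression was compared between cultured mouse hematopoietic stem and progenitor cells with and without knockdown of *Rad21*. The comparison comprised 6 of the 12 RNA-seq libraries of the series, 3 labelled shRad21 and 3 labelled shLuci, which are all that the labels place in culture. The remaining 6 libraries came from cells reisolated 3 mo (by their labels) after transplantation, a time for which the study's text differs, and were used only where a knockdown effect is set beside the one in vivo. LSK cells (lineage-negative, Sca-1+, c-Kit+ bone marrow cells) of C57BL/6 mice were infected with a lentivirus that carried GFP and an shRNA against *Rad21*, or against luciferase as the control. They were kept for 3 d in serum-free medium with thrombopoietin and stem cell factor, and GFP+CD48-Sca-1+ cells were then sorted from both groups for total RNA. The labels name no inflammatory stimulus for either group. The labels do not say which of the study's shRNAs against *Rad21* was used, how old the donor mice were, or whether replicates came from separate cultures or animals, so p-values measure the spread between these samples, which may be technical.

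RAD21 is the subunit that closes the ring of cohesin, the complex that holds sister chromatids together and folds chromatin into loops, many of them anchored where CTCF is bound. Stem and progenitor cells taken into culture with growth factors cycle and begin to differentiate, so a culture of this kind holds cells at several stages. In such a bulk measurement, fewer cells of a type and less RNA per cell cannot be told apart.

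The libraries held 15235129 to 29846689 gene counts, enough for a test of 15543 of 46078 genes. Levels are given as CPM, read counts scaled to a common library size with TMM normalization. Values for single libraries stand in the order 1, 2 and 3 of a group, and means are given ± SD (n = 3 per group). Log2 fold changes of shRad21 over shLuci are given ± SE as "log2", or alone in parentheses after a gene. Adjusted p-values (Benjamini-Hochberg) came from edgeR's quasi-likelihood test over all 15543 genes, and a gene was called below 0.05. Where a call was lost when 1 library was left out or with another setting, this is given after "lost without" or "lost with", together with the adjusted p-value obtained then. Deviations from the group means correlated more within than across replicate numbers, which does not establish that the numbers pair the samples. A fit with the replicate number as a block was therefore made as an alternative. It is given as "with the block" where it changed the call of a named gene or moved a count by over 1.5 times. After the median of a list stand its values with a library left out, or with 10 counts required in every library, where they differ from it by over 1.5 times. The kit does not mark strand, so the percentage of exonic bases shared with other annotated genes is given where it is 5% or more. A count of 3, the smallest amount taken as detectable, equals 0.101 to 0.197 CPM. The genes of the sort markers were used for the gate and are no result. *Ly6a*, which encodes Sca-1, had 182, 256 and 214 CPM in shLuci and 80.99, 158 and 185 CPM in shRad21 libraries, lower in shRad21 for each replicate number (adjusted p = 0.117, with the block 0.000464). *Cd48* had 41.4, 31.95 and 27.6 CPM in shLuci and 47.4, 33.04 and 31.1 CPM in shRad21 libraries, so the mRNA was counted in cells sorted as negative for the protein. The gate as named includes no c-Kit or lineage marker, although the study's stain for cultured LSK cells lists antibodies to them.

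*Rad21* (ENSMUSG00000022314, chr15:51962200-51991700, GRCm38) was low in each library labelled shRad21, with 359.8, 394 and 381 CPM in shLuci and 145, 129 and 121 CPM in shRad21 libraries (log2 -1.52 ± 0.0885, adjusted p = 1.16e-05). Among the other 16 tested genes of cohesin, its loaders and its regulators, *Stag1*, one of the alternative STAG subunits of the ring, moved most. It had 118, 110.3 and 117 CPM in shLuci and 243, 240.3 and 249 CPM in shRad21 libraries, with no overlap between groups (log2 1.08 ± 0.0725, adjusted p = 1.53e-05). Its paralog *Stag2* and the core subunit *Smc1a* did not pass the test, with mean levels in shLuci and shRad21 libraries of 326 and 389 CPM for *Stag2* (adjusted p = 0.0518, with the block 0.0359) and of 461 and 458 CPM for *Smc1a* (adjusted p = 0.97). Such pairs of means are given below for the most abundant members that did not pass. *Ctcf* was called higher (log2 0.26 ± 0.0743, adjusted p = 0.0398, 7.61% of exonic bases shared, lost without each library but shLuci 3, adjusted p up to 0.115) and *Stag3*, the meiotic STAG gene, lower (log2 -0.47 ± 0.111, adjusted p = 0.0163, lost without shLuci 2, shRad21 1 or shRad21 3, adjusted p up to 0.0855, lost with all 12 libraries in 1 model, adjusted p = 0.269). The median log2 fold change of the 17 genes was 0.10, 0.054 without shLuci 1, 0.060 without shRad21 3, and with the block 4 of them were called higher. In the 12-library model, the *Stag1* effect was 0.34 in vivo, a difference of 0.73 (interaction adjusted p = 0.00162).

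Of the 15543 genes, 2213 were called (14.2%), 960 higher (6.18%) and 1253 lower (8.06%) in shRad21 cells. The median log2 fold change of all genes tested was -0.0039, so the lists below are read against a centre near 0. At least 2-fold changes were made by 211 of the higher and 458 of the lower genes. The groups did not overlap for 31.7% of all genes tested and for 2194 of the 2213 called. The calls that passed under every alternative numbered 419 higher and 630 lower. The total was 1378 without shLuci 2, 1352 without shRad21 2 and 1463 without shRad21 3, and with the block 1447 genes were higher. The genes were then read in 39 lists by function, in which 730 of 1042 genes had enough counts for a test. Some lists had a share called near the 14.2% of all genes, so their counts are no result about the list. These were fatty acid synthesis (14.3%), interferon-induced genes (15.8%), Hox genes (16.7%) and sterol control (18.8%). Mast cell and basophil genes (12.5%) and TGF-β receptors (9.09%) were also among them. On the marker lists described further below, 8 of 12 tested monocyte genes and 5 of 6 tested dendritic genes were lower. The genes that set dendritic cells apart more narrowly were too low for a test. Of 13 megakaryocyte genes, 8 were higher and 2 lower. The part of shifts between cell types in the other lists was not tested. Where a list had 0 calls in 1 direction in edgeR, DESeq2 called 0 as well, and 0 members passed at an unadjusted p under 0.05 unless stated.

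**Figure D1:**
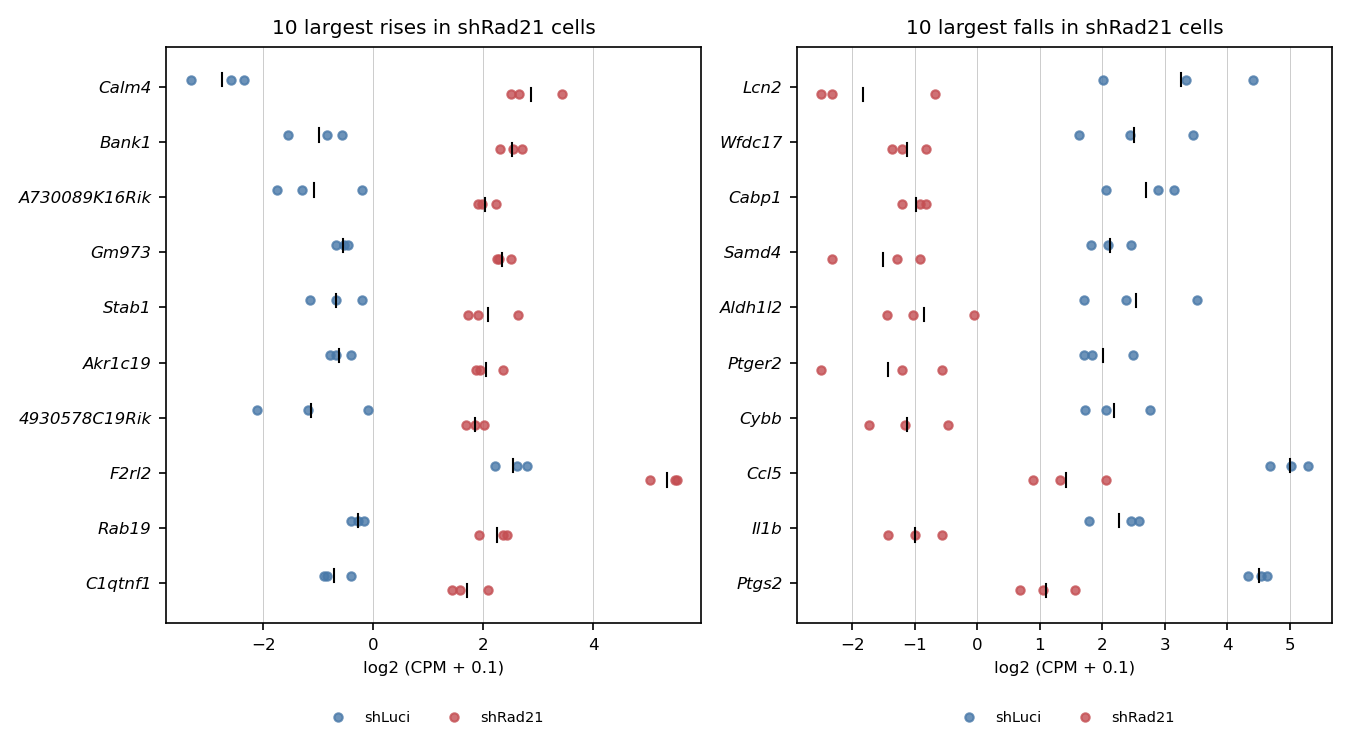
Expression of the 10 genes with the largest rise (left) and the 10 with the largest fall (right) among called genes whose mean log2 CPM was 1 or more, as log2 of CPM plus 0.1, with blue points for the 3 shLuci and red points for the 3 shRad21 libraries and black ticks for means. The choice of the 20 genes required all 3 shRad21 libraries to lie on 1 side of all 3 shLuci libraries. For *Calm4* the shLuci points rest on 3 reads in all.

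The largest rise was that of *Calm4*, a calmodulin-like gene best known from skin. It had 1, 2 and 0 reads in the shLuci and 159, 116 and 319 reads in the shRad21 libraries, a ratio of reads per library size of 155 (95% interval 52.6 to 752, exact, counting error only). *Bank1*, a B-cell scaffold gene, came next, with 0.461, 0.241 and 0.570 CPM in shLuci and 4.82, 5.74 and 6.40 CPM in shRad21 libraries (log2 3.72 ± 0.284, adjusted p = 2.53e-05). *Stab1*, a scavenger receptor of macrophages and sinusoidal endothelium, had 0.527, 0.772 and 0.351 CPM in shLuci and 3.19, 3.63 and 6.13 CPM in shRad21 libraries (log2 2.98 ± 0.357, adjusted p = 0.000396). All 3 genes were thus below 1 CPM in each control library. *F2rl2* was the only one of the 10 above 1 CPM there, with 6.06, 6.81 and 4.52 CPM in shLuci and 32.7, 44.7 and 45.8 CPM in shRad21 libraries, and it is described with the receptors. The other 6 included the aldo-keto reductase gene *Akr1c19* (2.90, adjusted p = 7.2e-05) and the small GTPase gene *Rab19* (2.70, adjusted p = 6.74e-05). They further included *A730089K16Rik* (3.18, adjusted p = 0.000233, 75.98% of exonic bases shared), *Gm973* (3.10, adjusted p = 2.07e-05), *4930578C19Rik* (2.90, adjusted p = 0.000689) and *C1qtnf1* (2.61, adjusted p = 0.0003, 20.5% of exonic bases shared).

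The largest fall was that of *Lcn2*, the gene of the iron-binding protein lipocalin 2, with 10.004, 21.3 and 3.95 CPM in shLuci and 0.0778, 0.526 and 0.101 CPM in shRad21 libraries (log2 -5.75 ± 0.732, adjusted p = 0.000577). The control libraries differed more than 5-fold among themselves. That the lowest of them was above every shRad21 library was a condition for the choice of these genes. *Cabp1*, a neuronal calcium-binding protein gene, had 4.08, 7.29 and 8.73 CPM in shLuci and 0.467, 0.430 and 0.335 CPM in shRad21 libraries (log2 -4.04 ± 0.333, adjusted p = 3.8e-05). *Samd4*, an RNA-binding repressor of translation, had 4.15, 5.41 and 3.42 CPM in shLuci and 0.311, 0.430 and 0.101 CPM in shRad21 libraries (log2 -4.00 ± 0.374, adjusted p = 9.06e-05, 9.72% of exonic bases shared). The knockdown libraries of both genes stayed below 1 CPM. *Cybb*, the catalytic subunit of the phagocyte NADPH oxidase, fell from 4.66 ± 1.82 to 0.391 ± 0.213 CPM (log2 -3.63 ± 0.399, adjusted p = 0.000243). *Il1b*, the interleukin-1β gene, fell from 4.87 ± 1.36 to 0.416 ± 0.151 CPM (log2 -3.55 ± 0.325, adjusted p = 7.48e-05). *Wfdc17* and *Ccl5* are described with their chromosomal neighbours, *Aldh1l2* with amino acid metabolism, and *Ptger2* and *Ptgs2* with prostaglandin signaling.

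**Figure D2:**
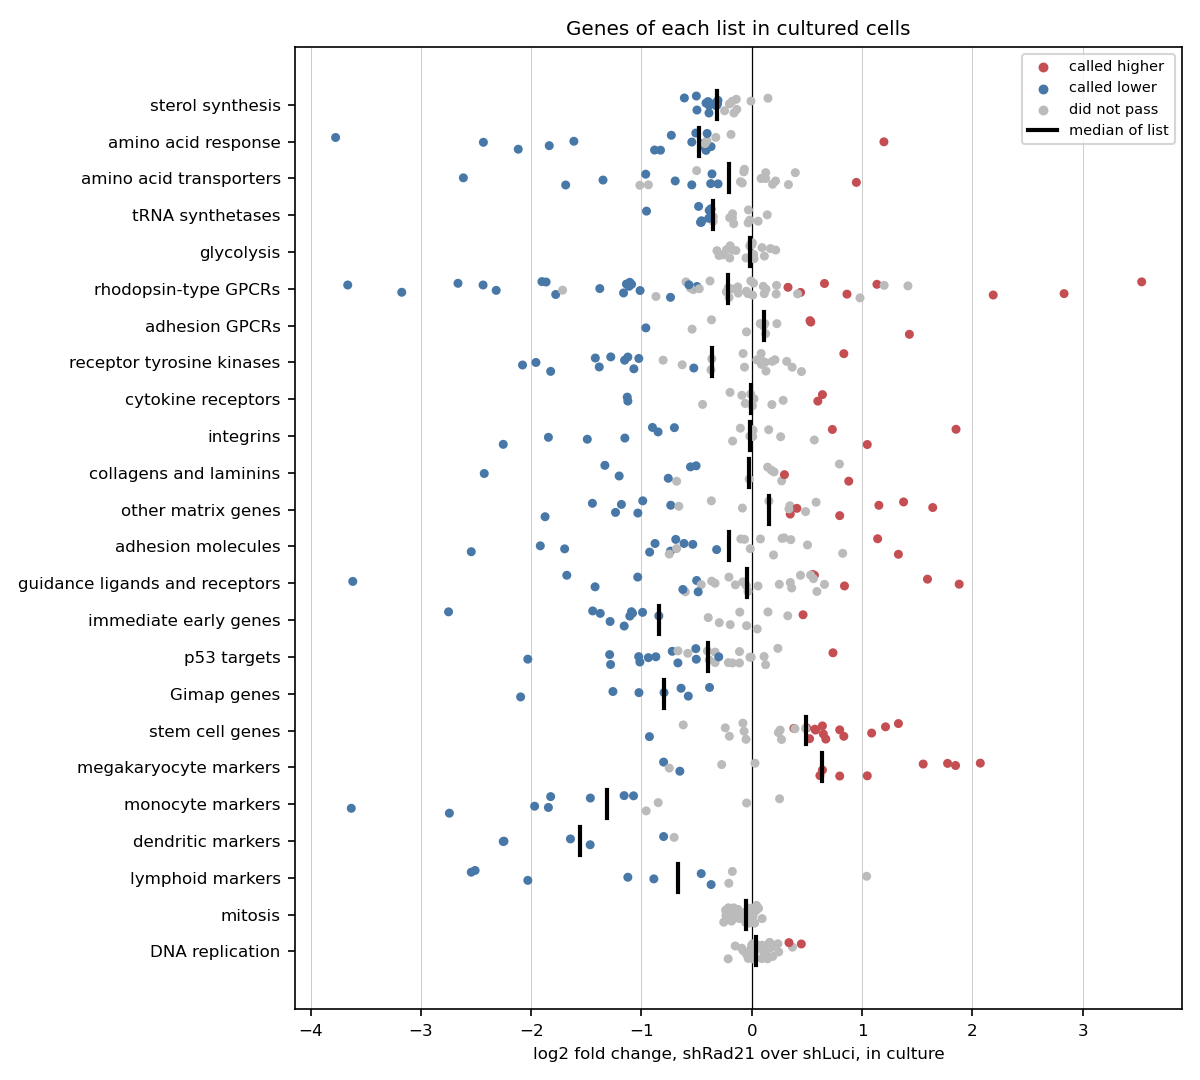
Log2 fold change of each tested gene in 24 gene lists, with red points called higher, blue points called lower, grey points not passing the test and black bars at the median of each list. The medians of the amino acid, sterol, monocyte and dendritic lists lie left of 0, and those of the stem cell and megakaryocyte lists right of it. Some members of the amino acid and stem cell lists lie on the other side. Mitosis and replication genes gather around 0.

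Genes of amino acid metabolism fell together. Cells short of amino acids, or under other stress, raise the transcription factor ATF4, which induces enzymes of serine, asparagine and proline synthesis, amino acid carriers and tRNA synthetases. Of 20 tested genes of this response, 15 were called lower and 1 higher, with a median log2 fold change of -0.48, and 10 of the lower calls held under every alternative. *Asns*, asparagine synthetase, had 82.9, 117 and 50.4 CPM in shLuci and 27.2, 34.4 and 20.4 CPM in shRad21 libraries (log2 -1.61 ± 0.266, adjusted p = 0.00236). *Pycr1*, the last enzyme of mitochondrial proline synthesis, had 14.3, 24.2 and 12.4 CPM in shLuci and 2.76, 5.16 and 3.89 CPM in shRad21 libraries (log2 -2.12 ± 0.277, adjusted p = 0.000643). *Chac1*, which degrades glutathione, had 5.20, 7.77 and 3.99 CPM in shLuci and 0.661, 1.72 and 0.838 CPM in shRad21 libraries (log2 -2.43 ± 0.351, adjusted p = 0.0011). In all 3 genes the highest shRad21 value lay below the lowest control, although controls varied about 2-fold among themselves. The mitochondrial folate enzyme *Aldh1l2* had 3.16, 11.4 and 5.13 CPM in shLuci and 0.389, 0.861 and 0.268 CPM in shRad21 libraries (log2 -3.77 ± 0.521, adjusted p = 0.000862, 14.1% of exonic bases shared). *Shmt2*, which converts serine to glycine, fell from 174 ± 10.2 to 119 ± 8.68 CPM (log2 -0.54 ± 0.0831, adjusted p = 0.00154). *Cbs*, the first enzyme of transsulfuration, fell from 1.99 ± 0.364 to 0.544 ± 0.161 CPM (log2 -1.84 ± 0.292, adjusted p = 0.0019). *Atf4* (-0.42, adjusted p = 0.0387, lost without each library but shLuci 3, adjusted p up to 0.16) itself was called lower. The stress gene *Nupr1* went the other way, with 9.94, 13.5 and 13.3 CPM in shLuci and 19.02, 31.2 and 34.6 CPM in shRad21 libraries (log2 1.20 ± 0.206, adjusted p = 0.00309). *Pck2* (175 and 154 CPM, adjusted p = 0.182) and *Trib3* (54.02 and 40.7 CPM, adjusted p = 0.147, with the block 0.0327) did not pass.

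Transport followed in part. Of 24 amino acid carriers tested, 9 were called lower and 1 higher (median -0.20, -0.095 with 10 counts required in every library), with 2 higher without shLuci 1 or shLuci 3 and 3 higher with the block. *Slc7a5*, the light chain of the large neutral amino acid carrier, had 192, 192 and 128 CPM in shLuci and 101, 92.9 and 68.7 CPM in shRad21 libraries (log2 -0.96 ± 0.170, adjusted p = 0.00346). Its heavy chain *Slc3a2* fell from 191 ± 13.8 to 148 ± 7.90 CPM (log2 -0.37 ± 0.0822, adjusted p = 0.0115, lost without shLuci 2, shRad21 1 or shRad21 3, adjusted p up to 0.06). *Slc7a11*, the cystine carrier that feeds glutathione synthesis, had 32.4, 40.4 and 18.7 CPM in shLuci and 6.81, 15.3 and 6.67 CPM in shRad21 libraries (log2 -1.69 ± 0.330, adjusted p = 0.0061). *Slc1a4*, which takes up serine and alanine, had 35.5, 44.5 and 34.8 CPM in shLuci and 13.7, 17.4 and 14.2 CPM in shRad21 libraries (log2 -1.35 ± 0.131, adjusted p = 0.000122). The groups were apart for each of these carriers. The cationic carriers *Slc7a3* (-2.61, adjusted p = 0.00167) and *Slc7a1* (-0.54, adjusted p = 0.0114, lost without shLuci 2, adjusted p = 0.0587) were lower. So were the glutamine carrier *Slc1a5* (-0.36, adjusted p = 0.00933, lost without shRad21 2 or shRad21 3, adjusted p up to 0.0596) and the aromatic amino acid carrier *Slc16a10* (-0.69, adjusted p = 0.00435). *Slc7a8*, another light chain that pairs with *Slc3a2*, rose, with 26.1, 35.8 and 41.7 CPM in shLuci and 51.1, 69.4 and 80.2 CPM in shRad21 libraries (log2 0.95 ± 0.182, adjusted p = 0.00552). The carriers with the highest CPM, *Slc38a2* (550.2 and 523 CPM, adjusted p = 0.8) and *Slc6a6* (464 and 507 CPM, adjusted p = 0.681), did not pass. Of the 20 cytosolic aminoacyl-tRNA synthetases, 9 were called lower and 0 higher (median -0.35, -0.22 without shLuci 2). The lower calls numbered 4 without shRad21 3 and 5 without shLuci 2 or shRad21 1. *Cars*, the cysteine enzyme, fell from 99.03 ± 21.8 to 51.1 ± 5.49 CPM (log2 -0.95 ± 0.144, adjusted p = 0.00142). Lower as well were the enzymes for isoleucine, methionine, phenylalanine and valine, *Iars* (-0.46, adjusted p = 0.00534), *Mars* (-0.48, adjusted p = 0.00339), *Farsa* (-0.46, adjusted p = 0.00178) and *Vars* (-0.39, adjusted p = 0.00898, lost without shRad21 3, adjusted p = 0.0546). The synthetases *Eprs* (372 and 324 CPM, adjusted p = 0.145) and *Dars* (217 and 213 CPM, adjusted p = 0.87) did not pass.

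Because these genes moved together, their promoters were searched for TGATGNAA, the core of the element that ATF4 binds with C/EBP partners, on both strands of the 250 bases upstream of RefSeq start sites (GRCm38.p6). It was 1 of 7 patterns searched. Of 49 genes in the 3 amino acid lists with a promoter entry, 11 held a match (22.4%), as did 2.41% of 10478 tested genes with an entry and 3.45% of all 32851 promoters in the table. The response list was drawn up as genes of the ATF4 pathway, so its excess over all genes was built into the choice of genes. That excess says nothing about the knockdown. Among the 49 genes, 6 of 25 called lower held the match (24%), 1 of 2 called higher, and 4 of 22 that did not pass (18.2%). These windows of 36 bases show the matches of called genes, each written 5′ to 3′ on the strand of the gene with the match in capitals (on either strand).
*Asns* (chr6:7693211-7693246, minus strand): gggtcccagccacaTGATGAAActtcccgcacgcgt
*Pycr1* (chr11:120643830-120643865, minus strand): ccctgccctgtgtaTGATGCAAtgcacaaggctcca
*Chac1* (chr2:119351035-119351070, plus strand): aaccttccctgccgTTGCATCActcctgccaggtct
*Slc7a11* (chr3:50443658-50443693, minus strand): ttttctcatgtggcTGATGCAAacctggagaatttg
*Slc7a11* (chr3:50443639-50443674, minus strand): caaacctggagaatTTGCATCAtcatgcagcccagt
*Gars* (chr6:55037957-55037992, plus strand): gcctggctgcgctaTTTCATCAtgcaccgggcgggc
*Vldlr* (chr19:27216806-27216841, plus strand): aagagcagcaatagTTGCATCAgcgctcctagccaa
*Nupr1* (chr7:126625559-126625594, minus strand): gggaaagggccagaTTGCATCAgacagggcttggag
The first 5 windows precede genes with large falls. *Gars*, the glycyl-tRNA synthetase (-0.37, adjusted p = 0.0349, lost without each library but shLuci 3, adjusted p up to 0.14), and *Vldlr*, a lipoprotein receptor (-0.40, adjusted p = 0.00892, lost without shRad21 2, adjusted p = 0.0613), fell less, and *Nupr1* rose with the same core letters TTGCATCA as *Chac1*. The windows of *Slc7a11* overlap, so this promoter holds a pair of matches. A match describes letters in the reference and is no evidence of binding in these cells. Of the other patterns, TGATGNAAT matched 4 and TGATGCAA 8 of the 49, both contained in TGATGNAA.

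**Figure D3:**
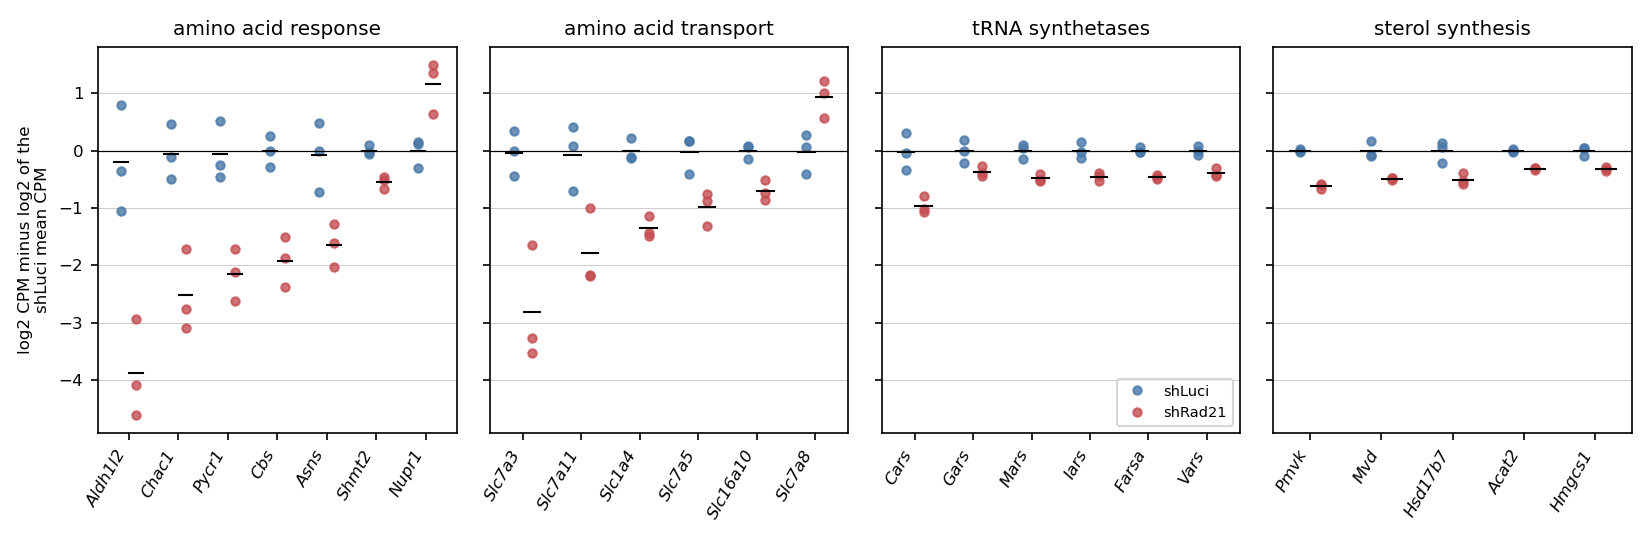
Expression in each library as log2 CPM minus log2 of the shLuci mean, for genes of the amino acid response, amino acid transport, tRNA synthetases and sterol synthesis (blue shLuci, red shRad21, black bars means). Only called genes are shown, so their directions follow from the choice and are no result about the lists. *Nupr1* and *Slc7a8* rise, and for the other genes the means of the red points lie below those of the blue ones. In the sterol panel they do so by under 1 log2 unit throughout.

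Enzymes of sterol synthesis fell by less. The mevalonate pathway makes cholesterol and isoprenoids and is induced by SREBP2 when cell sterols run low. Of its 20 enzymes, 12 were called lower and 0 higher, with a median log2 fold change of -0.31. The lower calls numbered 3 without shRad21 2, 5 without shRad21 1, 7 without shLuci 2. *Hmgcs1*, which makes the HMG-CoA at the start of the pathway, had 1065, 1063 and 969.9 CPM in shLuci and 846, 803 and 825 CPM in shRad21 libraries (log2 -0.32 ± 0.0794, adjusted p = 0.0195, 12.1% of exonic bases shared, lost without each library but shLuci 3, adjusted p up to 0.115, lost with all 12 libraries in 1 model, adjusted p = 0.0564). *Pmvk*, phosphomevalonate kinase, had 115, 117 and 113 CPM in shLuci and 72.7, 76.98 and 76.4 CPM in shRad21 libraries (log2 -0.61 ± 0.0717, adjusted p = 0.000355). The groups did not overlap in either enzyme. Further enzymes of the route that fell were *Mvd* (-0.50, adjusted p = 0.00326), *Hsd17b7* (-0.50, adjusted p = 0.00662) and *Acat2* (-0.32, adjusted p = 0.0115, lost without shRad21 1, shRad21 2 or shRad21 3, adjusted p up to 0.0639). Squalene epoxidase, *Sqle* (495 and 449 CPM, adjusted p = 0.371), did not pass. *Hmgcs1* was the only sterol gene of 15 with a promoter entry to hold TCACCCCAC, the classic SREBP element, which 0.62% of tested genes hold. For the looser TCACNCCAC, also 1 of the 15 and 1.24% of tested genes matched. TGAGTCA, an AP-1 element, matched 2 of the 15 and 3.97% of tested genes, and a κB element matched 0 of the 15 and 0.191%.

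Of 16 genes that control or move sterols, 2 were called higher and 1 lower (median -0.13, -0.059 without shLuci 3). *Nr1h3*, the sterol-sensing nuclear receptor LXRα, had 0.724, 1.16 and 1.10 CPM in shLuci and 2.88, 3.11 and 3.79 CPM in shRad21 libraries (log2 1.69 ± 0.243, adjusted p = 0.00109). The lipoprotein gene *Apoe*, a target of LXR, had 163, 151 and 177 CPM in shLuci and 226, 312 and 497 CPM in shRad21 libraries (log2 1.08 ± 0.219, adjusted p = 0.0076, lost without shLuci 2, adjusted p = 0.0501). Both genes were higher in each knockdown library, where *Apoe* spread more than 2-fold. *Srebf2* (825 and 721 CPM, adjusted p = 0.119) and *Stard4* (559 and 509.7 CPM, adjusted p = 0.32) did not pass. Of this list, 2 genes were lower without shLuci 1 or shLuci 3 and 4 with the block. In fatty acid synthesis, 1 of 14 genes rose, the carboxylase *Acacb* (0.83, adjusted p = 0.00451), and 1 fell, the desaturase *Scd2* (-0.35, adjusted p = 0.0199, lost without shLuci 2, shRad21 1 or shRad21 2, adjusted p up to 0.0986) (median -0.056, -0.10 to -0.057 with 1 library left out), and with the block 2 were lower. *Fasn* (487 and 502 CPM, adjusted p = 0.873) and *Acly* (739.6 and 683 CPM, adjusted p = 0.366) did not pass. Of 19 glycolysis genes, 0 were called in edgeR and 0 in DESeq2 (median -0.019, -0.061 to 0.012 with 1 library left out), while 3 were lower at an unadjusted p under 0.05, 3 with the block and 1 without shLuci 3. Their levels ranged up to those of *Pkm* (2365 and 2559 CPM, adjusted p = 0.434, 15.3% of exonic bases shared) and *Aldoa* (1873 and 1631 CPM, adjusted p = 0.198).

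Among G protein-coupled receptors of the rhodopsin type, 18 of 53 tested were called lower and 8 higher (median -0.21), and 14 and 5 of them passed under every alternative. Without shLuci 2, 5 were higher. These receptors sense lipids, nucleotides, proteases and metabolites. *S1pr3*, a receptor of sphingosine 1-phosphate, had 25.2, 26.7 and 21.7 CPM in shLuci and 4.12, 5.31 and 4.22 CPM in shRad21 libraries (log2 -2.44 ± 0.145, adjusted p = 1.16e-05). *Ptger2*, the prostaglandin E2 receptor EP2, had 3.49, 5.55 and 3.16 CPM in shLuci and 0.0778, 0.574 and 0.335 CPM in shRad21 libraries (log2 -3.66 ± 0.433, adjusted p = 0.000374). *Hcar2*, the niacin and hydroxybutyrate receptor, had 10.4, 9.27 and 7.68 CPM in shLuci and 1.05, 2.20 and 1.14 CPM in shRad21 libraries (log2 -2.66 ± 0.262, adjusted p = 0.000127). The lowest control library of each receptor was above its highest knockdown library. *P2ry2*, which binds extracellular ATP and UTP, fell from 11.2 ± 1.02 to 3.08 ± 0.284 CPM (log2 -1.86 ± 0.157, adjusted p = 4.47e-05). *Gpr84*, a fatty acid receptor of myeloid cells, fell from 18.5 ± 6.03 to 4.90 ± 0.103 CPM (log2 -1.90 ± 0.207, adjusted p = 0.000233, 39.5% of exonic bases shared). *Mc5r*, a melanocortin receptor, fell from 18.1 ± 1.47 to 2.03 ± 0.746 CPM (log2 -3.17 ± 0.232, adjusted p = 2.07e-05).

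The receptors that rose included 2 of the protease-activated family. *F2r* (PAR1, the thrombin receptor) had 196, 230.1 and 231 CPM in shLuci and 400.2, 503 and 539.6 CPM in shRad21 libraries (log2 1.13 ± 0.116, adjusted p = 0.000156). *F2rl2* (PAR3), like it on chromosome 13, changed more (log2 2.83, adjusted p = 1.43e-05). *Tacr1*, the substance P receptor, had 0.197, 0.0965 and 0.219 CPM in shLuci and 2.02, 2.10 and 1.98 CPM in shRad21 libraries (log2 3.53 ± 0.334, adjusted p = 9.85e-05), close to the detection limit in the controls. *P2ry14*, the UDP-glucose receptor of stem and progenitor cells, had 36.7, 33.8 and 30.2 CPM in shLuci and 50.4, 49.7 and 58.5 CPM in shRad21 libraries (log2 0.66 ± 0.104, adjusted p = 0.00182). *Lpar5*, a lysophosphatidic acid receptor, rose from 7.66 ± 1.38 to 13.8 ± 2.64 CPM (log2 0.86 ± 0.176, adjusted p = 0.0076). *Gpr171* (102 and 87.05 CPM, adjusted p = 0.14) and *Lpar6* (60.4 and 58.9 CPM, adjusted p = 0.887, 7.56% of exonic bases shared) did not pass. In the 12-library model, the *F2rl2* effect was 1.36 in vivo, a difference of 1.46 (interaction adjusted p = 0.00844), and that of *S1pr3* was -0.88 in vivo, a difference of -1.56 (interaction adjusted p = 0.00143). For *Hcar2* it was -0.19 in vivo, a difference of -2.47 (interaction adjusted p = 0.00665), and for *Tacr1* 3.87 in vivo, a difference of -0.34 (interaction adjusted p = 0.877).

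Of 12 adhesion-type receptors, 3 were higher and 1 lower (median 0.11, 0.049 without shLuci 1, 0.19 without shLuci 3, 0.036 without shRad21 3). The higher ones were *Adgrg2* (1.43, adjusted p = 0.00241), *Adgrl1* (0.53, adjusted p = 0.0136, 15.6% of exonic bases shared) and *Adgrd1* (0.53, adjusted p = 0.0364, lost without each library but shLuci 2 and shRad21 3, adjusted p up to 0.172). The lower one was *Adgrg3*, a receptor of myeloid cells, with 159, 162 and 193 CPM in shLuci and 92.3, 92.3 and 79.8 CPM in shRad21 libraries (log2 -0.96 ± 0.0977, adjusted p = 0.000153). *Adgrg1* (2609 and 2832 CPM, adjusted p = 0.639) and *Adgrl4* (381 and 416 CPM, adjusted p = 0.401) did not pass. Of 12 RGS genes, whose products switch G proteins off, 4 were higher and 1 lower (median 0.16, 0.25 without shLuci 1, 0.066 without shRad21 1, 0.31 without shRad21 3). *Rgs18*, the form of megakaryocytes and platelets, had 195, 219 and 178 CPM in shLuci and 273, 330.2 and 345 CPM in shRad21 libraries (log2 0.68 ± 0.108, adjusted p = 0.00183). *Rgs9* had 12.9, 16.99 and 9.65 CPM in shLuci and 1.94, 4.06 and 3.42 CPM in shRad21 libraries (log2 -2.07 ± 0.270, adjusted p = 0.00063). The other higher ones were *Rgs14* (0.60, adjusted p = 0.00345), *Rgs2* (0.63, adjusted p = 0.0155, lost without shRad21 3, adjusted p = 0.0561) and *Rgs3* (0.67, adjusted p = 0.0271, lost without shLuci 1, shRad21 1 or shRad21 2, adjusted p up to 0.0902). *Rgs1* (82.6 and 53.1 CPM, adjusted p = 0.0792, with the block 2.2e-05) and *Rgs19* (92.5 and 96.7 CPM, adjusted p = 0.641) did not pass without the block. With the block, and also without shLuci 1 or shRad21 3, 3 RGS genes were lower.

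Among prostaglandin genes, the inducible synthetic enzyme fell, as did the receptor gene *Ptger2*. *Ptgs2* (cyclooxygenase 2) had 24.8, 23.3 and 20.1 CPM in shLuci and 1.98, 2.87 and 1.51 CPM in shRad21 libraries (log2 -3.45 ± 0.203, adjusted p = 1.16e-05). It was the only lower call among 14 genes of prostanoid and leukotriene synthesis (median -0.062, -0.11 to 0.11 with 1 library left out). *Hpgds*, which makes prostaglandin D2, had 14.5, 17.1 and 30.6 CPM in shLuci and 45.9, 31.8 and 53.7 CPM in shRad21 libraries (log2 1.07 ± 0.254, adjusted p = 0.0166, lost without shLuci 1, shLuci 2 or shRad21 3, adjusted p up to 0.0906). *Tbxas1*, thromboxane synthase, had 84.8, 83.7 and 91.6 CPM in shLuci and 109, 117 and 107 CPM in shRad21 libraries (log2 0.35 ± 0.0768, adjusted p = 0.0106, lost without shRad21 2, adjusted p = 0.0676, lost with all 12 libraries in 1 model, adjusted p = 0.127). Their knockdown libraries were above every control library, by little for *Hpgds*. *Pla2g4a* (277 and 283 CPM, adjusted p = 0.9) and *Lta4h* (215 and 212 CPM, adjusted p = 0.933) did not pass, and with the block, or without shLuci 3, 2 genes of the list were lower.

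Receptor tyrosine kinases, through which cells read growth factors, were lower for 11 of 29 genes tested and higher for 1 (median -0.36, -0.15 without shLuci 3, -0.16 without shRad21 1, -0.074 with 10 counts required in every library). *Kit*, the receptor for the stem cell factor in the medium, had 634, 677 and 777 CPM in shLuci and 254, 252 and 276 CPM in shRad21 libraries (log2 -1.42 ± 0.0940, adjusted p = 1.53e-05). *Flt3*, the receptor of lymphoid-primed progenitors, had 198, 179 and 158 CPM in shLuci and 109.8, 72.3 and 63.1 CPM in shRad21 libraries (log2 -1.12 ± 0.174, adjusted p = 0.00168). *Csf1r*, the macrophage colony-stimulating factor receptor, had 15.8, 23.6 and 15.004 CPM in shLuci and 3.93, 5.55 and 5.90 CPM in shRad21 libraries (log2 -1.82 ± 0.209, adjusted p = 0.0003, 15.1% of exonic bases shared). All 3 receptors had controls wholly above the knockdown libraries. *Axl*, a receptor that binds Gas6, fell from 36.9 ± 4.41 to 15.2 ± 1.90 CPM (log2 -1.28 ± 0.126, adjusted p = 0.000127). *Fgfr1*, a fibroblast growth factor receptor, fell from 30.97 ± 2.97 to 15.3 ± 1.21 CPM (log2 -1.02 ± 0.111, adjusted p = 0.000233). The ephrin receptor *Ephb2* fell from 13.8 ± 0.828 to 6.21 ± 1.0003 CPM (log2 -1.15 ± 0.148, adjusted p = 0.000592). *Tek* (Tie2), the angiopoietin receptor of quiescent stem cells, rose instead, with 12.6, 13.3 and 15.7 CPM in shLuci and 21.4, 25.5 and 27.5 CPM in shRad21 libraries (log2 0.83 ± 0.131, adjusted p = 0.00176). *Tie1* (220.3 and 274 CPM, adjusted p = 0.0537, with the block 0.00901) and *Insr* (121 and 94.4 CPM, adjusted p = 0.0597, with the block 0.0067) did not pass. In the list, 3 genes were higher with the block or without shLuci 3, and 2 without shLuci 1. In the 12-library model the *Kit* effect was -0.44 in vivo, a difference of -0.99 (interaction adjusted p = 0.000367).

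Of 13 cytokine receptors, 2 rose and 2 fell (median -0.010, -0.098 to 0.017 with 1 library left out). *Csf3r*, the granulocyte colony-stimulating factor receptor, had 141, 156 and 151 CPM in shLuci and 66.6, 69.7 and 68.7 CPM in shRad21 libraries (log2 -1.13 ± 0.0751, adjusted p = 1.53e-05). *Il6ra*, the interleukin-6 receptor, had 49.6, 48.1 and 42.3 CPM in shLuci and 24.2, 22.7 and 17.5 CPM in shRad21 libraries (log2 -1.12 ± 0.127, adjusted p = 0.000278). The growth hormone receptor gene was called higher, *Ghr* (0.60, adjusted p = 0.014, lost without shLuci 2 or shRad21 3, adjusted p up to 0.0591, lost with all 12 libraries in 1 model, adjusted p = 0.0743). The shared beta chains *Csf2rb* (221 and 219.5 CPM, adjusted p = 0.975) and *Csf2rb2* (90.6 and 111 CPM, adjusted p = 0.32, with the block 0.021) did not pass. Among 11 receptors of the TGF-β family, 1 was called lower, the coreceptor *Tgfbr3* (-0.31, adjusted p = 0.0439, lost without each library but shLuci 1, adjusted p up to 0.15, lost with scaling by library size, adjusted p = 0.0595 or all 12 libraries in 1 model, adjusted p = 0.108), and 2 with the block. In that list 0 were higher (1 without shRad21 1, median -0.030, -0.055 to 0.12 with 1 library left out), and *Bmpr2* (157 and 181 CPM, adjusted p = 0.228) and *Eng* (286 and 240.5 CPM, adjusted p = 0.188, with the block 0.0428) did not pass. Of 15 Notch and Wnt receptors, 3 were lower and 1 higher (median -0.0093, -0.12 to 0.069 with 1 library left out). *Notch1* had 123, 111 and 126 CPM in shLuci and 68.9, 61.8 and 63.6 CPM in shRad21 libraries (log2 -0.89 ± 0.0829, adjusted p = 8.93e-05, 9.76% of exonic bases shared). The other Notch genes called lower were *Notch3* (-0.58, adjusted p = 0.00862, 6.03% of exonic bases shared) and *Notch2* (-0.32, adjusted p = 0.0163, 5.02% of exonic bases shared, lost without shRad21 2 or shRad21 3, adjusted p up to 0.109). The higher gene was *Fzd6* (0.32, adjusted p = 0.0436, lost without each library but shLuci 2, adjusted p up to 0.172, lost with all 12 libraries in 1 model, adjusted p = 0.192). *Lrp5* (151 and 134 CPM, adjusted p = 0.204) and *Lrp6* (132 and 141 CPM, adjusted p = 0.435) did not pass.

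The integrins, which bind cells to matrix and to each other, moved both ways, with 7 of 19 called lower and 3 higher (median -0.018, -0.13 to -0.027 with 1 library left out, -0.062 with 10 counts required in every library). *Itga6*, the laminin receptor subunit, had 288, 330.1 and 311 CPM in shLuci and 149, 133 and 137 CPM in shRad21 libraries (log2 -1.15 ± 0.0832, adjusted p = 2.07e-05). *Itgal* and *Itgam*, leukocyte subunits that pair with CD18, fell from 165 ± 25.9 to 58.9 ± 8.38 CPM (log2 -1.49 ± 0.131, adjusted p = 6.2e-05) and 30.3 ± 11.5 to 8.47 ± 2.95 CPM (log2 -1.84 ± 0.289, adjusted p = 0.00178, 68.7% of exonic bases shared), respectively. *Itga9* fell from 12.2 ± 1.91 to 6.53 ± 1.06 CPM (log2 -0.90 ± 0.171, adjusted p = 0.0052). On the rising side stood *Itga2b*, the platelet fibrinogen receptor subunit, with 186, 234 and 294 CPM in shLuci and 375, 524 and 577 CPM in shRad21 libraries (log2 1.05 ± 0.177, adjusted p = 0.00274). Its partner *Itgb3* had 167, 231 and 269.8 CPM in shLuci and 273, 381 and 455 CPM in shRad21 libraries (log2 0.73 ± 0.190, adjusted p = 0.0262, lost without each library but shLuci 3 and shRad21 1, adjusted p up to 0.087, lost with DESeq2, adjusted p = 0.0597). *Itgb6* rose from 1.26 ± 0.641 to 4.73 ± 1.63 CPM (log2 1.85 ± 0.361, adjusted p = 0.00601). The major beta chain and its VLA-4 partner, *Itgb1* (516 and 517 CPM, adjusted p = 0.984) and *Itga4* (287 and 255 CPM, adjusted p = 0.278, 8.04% of exonic bases shared), did not pass.

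Of 15 collagen and laminin genes tested, 6 were lower and 2 higher (median -0.024, -0.33 to 0.14 with 1 library left out, -0.51 with 10 counts required in every library). *Col18a1*, the endostatin precursor, had 39.95, 43.2 and 38.3 CPM in shLuci and 8.36, 7.70 and 6.57 CPM in shRad21 libraries (log2 -2.43 ± 0.119, adjusted p = 7.19e-06). *Col4a2* had 359.7, 321 and 346 CPM in shLuci and 168, 146 and 132 CPM in shRad21 libraries (log2 -1.20 ± 0.0984, adjusted p = 3.66e-05). *Col4a1*, which lies head to head with it at a shared promoter, had 309.9, 269.8 and 247 CPM in shLuci and 180.4, 159 and 149.5 CPM in shRad21 libraries (log2 -0.76 ± 0.103, adjusted p = 0.0008). None of the 3 genes had overlapping groups. Further lower calls were the laminin chain *Lamb3* (-1.33, adjusted p = 0.000253) and the fibrillar *Col11a2* (-0.56, adjusted p = 0.0076). Higher ones were *Lamc1* (0.30, adjusted p = 0.0298, lost without each library but shLuci 3, adjusted p up to 0.111, lost with all 12 libraries in 1 model, adjusted p = 0.198) and *Col23a1* (0.88, adjusted p = 0.0348, lost without each library but shLuci 3 and shRad21 2, adjusted p up to 0.139, lost with DESeq2, adjusted p = 0.0556 or all 12 libraries in 1 model, adjusted p = 0.113). *Col16a1* (57.7 and 63.6 CPM, adjusted p = 0.522) and *Lamb2* (39.4 and 44.5 CPM, adjusted p = 0.532) did not pass. Among 21 other matrix genes, 7 fell and 6 rose (median 0.16, 0.081 without shLuci 2, -0.010 without shRad21 1, 0.24 without shRad21 3), with 2 without shLuci 2 for the higher calls. *Emilin2*, an elastic fibre glycoprotein, had 677, 806 and 1078 CPM in shLuci and 272, 345 and 471 CPM in shRad21 libraries (log2 -1.24 ± 0.200, adjusted p = 0.0021). *Spp1* (osteopontin), a niche signal to stem cells, had 22.9, 21.9 and 16.9 CPM in shLuci and 11.4, 7.98 and 7.74 CPM in shRad21 libraries (log2 -1.18 ± 0.174, adjusted p = 0.0012, 18.8% of exonic bases shared). The related multimerin *Mmrn1*, stored in platelets, had 48.4, 56.5 and 70.2 CPM in shLuci and 161, 183 and 204 CPM in shRad21 libraries (log2 1.64 ± 0.133, adjusted p = 3.58e-05). Lower calls were also *Agrn* (-0.73, adjusted p = 0.000688), *Matn2* (-1.44, adjusted p = 0.00183) and *Thbs1* (-1.87, adjusted p = 0.00283, lost with all 12 libraries in 1 model, adjusted p = 0.188). The proteoglycan gene *Bgn* (1.15, adjusted p = 0.00399) and *Vwf* (0.80, adjusted p = 0.00863, lost without shLuci 2, adjusted p = 0.0534), the von Willebrand factor gene, were higher. *Sparc* (1.38, adjusted p = 0.0151, lost without shLuci 1 or shLuci 2, adjusted p up to 0.0739) and *Emilin1* (0.35, adjusted p = 0.0234, lost without shLuci 2, shRad21 2 or shRad21 3, adjusted p up to 0.105) were higher too. *Srgn* (552 and 520.2 CPM, adjusted p = 0.673) and *Ecm1* (13.03 and 16.6 CPM, adjusted p = 0.203, with the block 0.0425) did not pass.

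Matrix proteases and their inhibitors gave 3 higher and 3 lower calls of 21 tested (median -0.24, 0.19 without shLuci 3, -0.010 without shRad21 2, -0.023 with 10 counts required in every library). The inhibitor *Timp3* had 24.8, 25.5 and 32.99 CPM in shLuci and 41.04, 50.1 and 68.8 CPM in shRad21 libraries (log2 0.94 ± 0.177, adjusted p = 0.00503, 21.3% of exonic bases shared). The proteases *Adamts1* (1.53, adjusted p = 0.0054) and *Mmp16* (1.60, adjusted p = 0.0196, lost without shLuci 2, shLuci 3 or shRad21 1, adjusted p up to 0.0989) were higher. The protease inhibitor *Serpine2* (-1.19, adjusted p = 0.00971) was lower, as were *Mmp19* (-1.84, adjusted p = 0.00687, 28.3% of exonic bases shared) and *Mmp14* (-0.56, adjusted p = 0.0349, lost without each library but shLuci 1, adjusted p up to 0.118, lost with all 12 libraries in 1 model, adjusted p = 0.256). *Adamts10* (169.7 and 185 CPM, adjusted p = 0.614) and *Timp2* (22.9 and 25.96 CPM, adjusted p = 0.349) did not pass, and with the block 5 were lower. Of 24 adhesion molecules, 10 were lower and 2 higher (median -0.21). *Cd47*, the signal against phagocytosis, had 528, 574 and 481 CPM in shLuci and 346, 351 and 337 CPM in shRad21 libraries (log2 -0.61 ± 0.0847, adjusted p = 0.000858). *Podxl*, a CD34-related sialomucin, had 134, 131 and 139.6 CPM in shLuci and 80.1, 67.7 and 64.7 CPM in shRad21 libraries (log2 -0.93 ± 0.0915, adjusted p = 0.000127). Lower too were *Cd9* (-0.88, adjusted p = 0.000153, 10.7% of exonic bases shared) and *Jam2* (-1.92, adjusted p = 0.000281). *Esam*, a junction protein that marks stem cells, had 75.2, 64.8 and 81.4 CPM in shLuci and 166, 187 and 203 CPM in shRad21 libraries (log2 1.33 ± 0.105, adjusted p = 3.18e-05). The endomucin gene *Emcn* (1.14, adjusted p = 0.000123) rose too. *Cd34* (889.6 and 1019.6 CPM, adjusted p = 0.127) and *Pecam1* (204 and 251 CPM, adjusted p = 0.232, with the block 0.0222) did not pass, and with the block 5 were higher. In the 12-library model the *Jam2* effect had the opposite sign in the reisolated cells, with 1.92 in vivo, a difference of -3.84 (interaction adjusted p = 0.000107), and so had that of *Podxl*, with 1.09 in vivo, a difference of -2.02 (interaction adjusted p = 0.000158).

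Guidance genes, named for axon growth and also used by blood cells for migration, gave 5 higher and 7 lower calls among 30 tested (median -0.042, -0.16 to 0.081 with 1 library left out). Both Robo genes of the list that were called rose. *Robo1* had 4.41, 3.19 and 4.34 CPM in shLuci and 13.7, 10.4 and 11.8 CPM in shRad21 libraries (log2 1.59 ± 0.176, adjusted p = 0.000248). *Robo3* had 3.69, 6.23 and 11.8 CPM in shLuci and 21.5, 30.2 and 30.1 CPM in shRad21 libraries (log2 1.88 ± 0.303, adjusted p = 0.00208). The plexins *Plxnc1* (0.57, adjusted p = 0.0012), *Plxna1* (0.55, adjusted p = 0.00168, 10.7% of exonic bases shared) and *Plxna4* (0.84, adjusted p = 0.0134, lost without shLuci 2, adjusted p = 0.0645) were higher. The semaphorin receptors *Plxnb2* (-0.50, adjusted p = 0.00207) and *Nrp1* (-1.42, adjusted p = 0.00441) and the netrin receptor *Unc5b* (-1.68, adjusted p = 0.00402) were lower. *Sema4d*, a leukocyte semaphorin, had 152, 174 and 194 CPM in shLuci and 110.2, 114 and 113 CPM in shRad21 libraries (log2 -0.62 ± 0.0920, adjusted p = 0.00122). *Sema6d* fell from 2.32 ± 0.257 to 0.195 ± 0.191 CPM (log2 -3.62 ± 0.503, adjusted p = 0.000888), with 0 counts in 1 shRad21 library. *Plxnd1* (92.5 and 79.99 CPM, adjusted p = 0.224) and *Sema7a* (59.5 and 58.02 CPM, adjusted p = 0.875) did not pass.

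**Figure D4:**
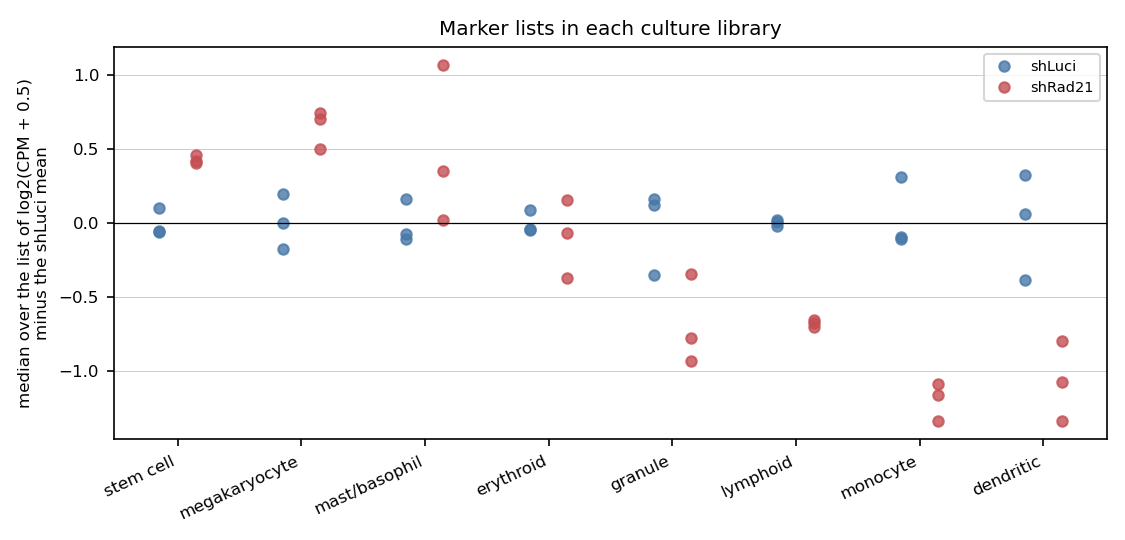
Median over each marker list of log2(CPM + 0.5) minus the mean of the shLuci libraries for the same gene, with 1 point per culture library (blue shLuci, red shRad21). The shRad21 points lie above all shLuci points for the stem cell and megakaryocyte lists and below them for the lymphoid, monocyte and dendritic lists. The groups overlap for the erythroid, granule and mast cell and basophil lists.

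Most calls were higher on the list of stem cell genes and lower on those of monocyte, dendritic and lymphoid markers. Of 25 stem cell genes, 13 were called higher, 1 lower, and 11 did not pass (median 0.49). The list includes *Ly6a*, the gene of a sort marker, which enters the median and the sum. It was among the 11 that did not pass, and among the genes lower with the block. The summed level of the list, scaled by library size alone, was 2838 to 3002 CPM in shLuci and 3499.6 to 3944 CPM in shRad21 libraries. *Slamf1*, which encodes the stem cell marker CD150, had 10.3, 15.4 and 12.7 CPM in shLuci and 23.96, 32.3 and 33.3 CPM in shRad21 libraries (log2 1.21 ± 0.165, adjusted p = 0.000803). *Mecom* (Evi1), required for long-term stem cells, had 92.3, 93.3 and 103 CPM in shLuci and 151, 136 and 145 CPM in shRad21 libraries (log2 0.58 ± 0.0795, adjusted p = 0.000848). The knockdown libraries of both genes were above every control. The exception was *Gfi1b*, a repressor that limits stem cell expansion and drives erythroid and megakaryocytic maturation. It had 88.2, 78.1 and 67.1 CPM in shLuci and 38.3, 46.2 and 38.1 CPM in shRad21 libraries (log2 -0.93 ± 0.117, adjusted p = 0.000546). Its effect in the 12-library model was 0.58 in vivo, a difference of -1.52 (interaction adjusted p = 0.00189). *Angpt1* (501 and 424 CPM, adjusted p = 0.117, 14.2% of exonic bases shared) and *Mycn* (281 and 266 CPM, adjusted p = 0.644) did not pass, and 2 genes of the list were lower with the block and without shLuci 3 or shRad21 3. Of 18 Hox genes, *Hoxa9* had 87.3, 79.8 and 96.3 CPM in shLuci and 131, 121 and 127 CPM in shRad21 libraries (log2 0.52 ± 0.0859, adjusted p = 0.0023). *Hoxa7* (0.59, adjusted p = 0.00284, 20.4% of exonic bases shared) rose as well and *Hoxb9* (-0.99, adjusted p = 0.0115, lost without shLuci 2, adjusted p = 0.0534, lost with all 12 libraries in 1 model, adjusted p = 0.117) was lower. *Hoxa10* (24.9 and 23.6 CPM, adjusted p = 0.691) and *Hoxa5* (11.6 and 15.6 CPM, adjusted p = 0.063, with the block 0.02) did not pass, and 2 were lower with the block. The list median was -0.064, -0.15 to 0.028 with 1 library left out.

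Of 13 megakaryocyte markers, 8 were higher and 2 lower (median 0.64). *Gp1ba*, a subunit of the von Willebrand factor receptor of platelets, had 5.66, 9.99 and 13.9 CPM in shLuci and 27.9, 43.99 and 54.5 CPM in shRad21 libraries (log2 2.07 ± 0.289, adjusted p = 0.000907). *Gp5*, a subunit of the same receptor, had 4.61, 4.39 and 5.70 CPM in shLuci and 13.3, 18.4 and 18.9 CPM in shRad21 libraries (log2 1.77 ± 0.175, adjusted p = 0.000127). *Rab27b*, which serves platelet granule release, had 43.97, 59.3 and 71.4 CPM in shLuci and 111, 176 and 227 CPM in shRad21 libraries (log2 1.55 ± 0.231, adjusted p = 0.00131). *Treml1* rose from 2.61 ± 0.497 to 9.50 ± 2.41 CPM (log2 1.85 ± 0.224, adjusted p = 0.000424). The chemokines stored in platelet granules, *Pf4* (-0.65, adjusted p = 0.0171, lost without shLuci 2, adjusted p = 0.0858, lost with all 12 libraries in 1 model, adjusted p = 0.0741) and *Ppbp* (-0.80, adjusted p = 0.0208, lost without shLuci 2, shRad21 1 or shRad21 3, adjusted p up to 0.0843, lost with all 12 libraries in 1 model, adjusted p = 0.185), were lower. *Nfe2* (358 and 365 CPM, adjusted p = 0.873) and *Selp* (26.6 and 15.9 CPM, adjusted p = 0.0894, 14.1% of exonic bases shared, with the block 7.94e-05) did not pass. The summed level of the list was 1188 to 1362 CPM in shLuci and 1421 to 1944 CPM in shRad21 libraries, with *Gp6* at 0 counts in both groups. Of 7 erythroid genes, *Tfrc*, the transferrin receptor, had 343, 320.2 and 304 CPM in shLuci and 182, 174 and 187 CPM in shRad21 libraries (log2 -0.83 ± 0.0785, adjusted p = 9.73e-05). The globin gene *Hbb-bt* (-0.93, adjusted p = 0.00103) and *Car2* (-0.41, adjusted p = 0.00831) were lower too, and the transcription factor gene *Gata1* (1.67, adjusted p = 0.0143, lost without shLuci 2, adjusted p = 0.0601) was higher. *Aqp1* (20.1 and 18.1 CPM, adjusted p = 0.659) and *Epor* (12.8 and 14.5 CPM, adjusted p = 0.474) did not pass, and the list median was -0.15, -0.050 without shLuci 3, 0.057 without shRad21 1, -0.33 without shRad21 3. The erythroid sum was 861 to 879 and 576 to 597 CPM, with *Hba-a1*, *Hba-a2* and *Slc4a1* at 0 counts. *Cpa3*, the mast cell carboxypeptidase, had 5.46, 10.6 and 12.7 CPM in shLuci and 19.8, 35.9 and 63.5 CPM in shRad21 libraries (log2 2.03 ± 0.382, adjusted p = 0.00493), the only call among 8 mast cell and basophil genes (median 0.51, 1.02 without shLuci 1, 0.29 without shLuci 3, 0.20 without shRad21 3, -0.0010 with 10 counts required in every library). The sum of that list was 34.98 to 110.0 and 42.2 to 177 CPM, *Gzmb* (58.6 and 45.5 CPM, adjusted p = 0.768, with the block 0.0282) and *Mcpt8* (4.03 and 3.22 CPM, adjusted p = 0.406) did not pass. With the block 3 genes were higher and 1 lower, and without shLuci 1 or shRad21 1, 3 were higher.

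Monocyte markers fell for 8 of 12 genes, with 0 called higher (median -1.31), and their summed level was 124 to 176 CPM in shLuci and 60.3 to 68.4 CPM in shRad21 libraries. *Cx3cr1*, the fractalkine receptor, had 18.2, 21.05 and 17.6 CPM in shLuci and 2.02, 4.40 and 2.25 CPM in shRad21 libraries (log2 -2.74 ± 0.243, adjusted p = 6.42e-05). *Cd68*, a lysosomal glycoprotein of macrophages, had 30.01, 25.1 and 24.1 CPM in shLuci and 12.6, 11.8 and 11.03 CPM in shRad21 libraries (log2 -1.16 ± 0.1203, adjusted p = 0.000176). Lower as well was *Cd14*, the lipopolysaccharide coreceptor (-1.97, adjusted p = 0.00139), while *Ctss* (17.6 and 20.9 CPM, adjusted p = 0.516) and *Fcgr3* (4.74 and 2.42 CPM, adjusted p = 0.158, with the block 0.00386) did not pass. On the dendritic list, 5 of 6 tested genes were lower (median -1.55, sum 109 to 184 against 52.4 to 76.99 CPM). They were *Cd74* (-1.47, adjusted p = 0.000957), the invariant chain, the integrin subunit *Itgax* (-2.25, adjusted p = 0.00383), and the class II chains *H2-Aa* (-2.25, adjusted p = 0.00123), *H2-Ab1* (-0.80, adjusted p = 0.00791) and *H2-Eb1* (-1.64, adjusted p = 0.0133, lost without shLuci 2, adjusted p = 0.0666). *Ciita* (1.71 and 1.04 CPM, adjusted p = 0.126) did not pass. The genes that set dendritic cells apart more narrowly were too low for a test, with 32 and 22 reads in the groups for *Siglech*, 27 and 13 for *Batf3*, 7 and 2 for *Xcr1* and 5 in each for *Cd209a*. On the granule list, 4 of 8 were lower and 1 higher (median -0.72, -0.29 with 10 counts required in every library, sum 208 to 275 against 229.8 to 249 CPM). *Prtn3*, proteinase 3, had 48.9, 51.7 and 53.04 CPM in shLuci and 18.9, 22.1 and 25.1 CPM in shRad21 libraries (log2 -1.22 ± 0.110, adjusted p = 7.28e-05, 9.18% of exonic bases shared). The azurophil granule enzymes *Mpo* (-1.19, adjusted p = 0.037, 14.95% of exonic bases shared, lost without each library but shLuci 3 and shRad21 2, adjusted p up to 0.184, lost with DESeq2, adjusted p = 0.107) and *Ctsg* (-1.15, adjusted p = 0.0352, lost without each library but shLuci 3 and shRad21 2, adjusted p up to 0.175, lost with all 12 libraries in 1 model, adjusted p = 0.056) were lower. The repressor *Gfi1* rose, with 35.2, 26.8 and 34.1 CPM in shLuci and 60.9, 54.1 and 74.8 CPM in shRad21 libraries (log2 0.98 ± 0.137, adjusted p = 0.000888). *Lyz2* (126 and 134 CPM, adjusted p = 0.731) and *Ltf* (1.78 and 1.71 CPM, adjusted p = 0.978) did not pass, and 2 without shLuci 1, shLuci 2, shRad21 1 or shRad21 3 were lower. The defining neutrophil genes *S100a8*, *S100a9*, *Camp* and *Ngp* had at most 4 counts in any library and *Fcnb* had 0. Of 10 lymphoid genes, 7 were lower and 0 higher (median -0.67, sum 399 to 448 against 211 to 296 CPM). *Tcf7* (TCF-1), a T-lineage factor also made in progenitors, had 14.9, 21.3 and 21.3 CPM in shLuci and 2.45, 3.92 and 3.79 CPM in shRad21 libraries (log2 -2.51 ± 0.204, adjusted p = 3.61e-05). The B-cell receptor gene *Cd79b* (-0.46, adjusted p = 0.0147, lost without shLuci 2, shRad21 1 or shRad21 2, adjusted p up to 0.0693) was lower too. *Dntt* (17.1 and 34.7 CPM, adjusted p = 0.0635, with the block 1.2e-05) and *Lck* (14.8 and 12.8 CPM, adjusted p = 0.305) did not pass. Without shLuci 2 or shRad21 2, 4 lymphoid genes were lower, and 1 was higher at an unadjusted p under 0.05, with the block, and without shLuci 1 or shRad21 3. The defining genes *Cd3e*, *Pax5* and *Ebf1* had at most 3 counts in a library. *Rag1*, *Il7r* and *Cd79a* had at most 7, and these 6 genes were not tested. The part of such shifts between cell types in the results above was not tested.

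Few cell division genes were called. Of 30 mitosis genes, 0 were called in edgeR, 0 in DESeq2 and 0 with the block (median -0.057, -0.12 to -0.017 with 1 library left out), and 5 were lower at an unadjusted p under 0.05. The most abundant were *Top2a* (638 and 569.7 CPM, adjusted p = 0.303) and *Kif11* (208 and 191 CPM, adjusted p = 0.37). Of 45 replication genes, *Chaf1b* (0.45, adjusted p = 0.00892) and *Rfc2* (0.34, adjusted p = 0.0349, 15.1% of exonic bases shared, lost without each library but shLuci 3 and shRad21 1, adjusted p up to 0.139) were called higher and 0 lower (median 0.034, -0.0013 to 0.10 with 1 library left out). *Mcm6* (414 and 424 CPM, adjusted p = 0.839) and *Rrm1* (365 and 398 CPM, adjusted p = 0.371) did not pass. Of 28 p53 targets, 12 were lower and 1 higher (median -0.39). *Cdkn1a*, the cell cycle inhibitor p21, had 155, 173 and 117 CPM in shLuci and 64.7, 94.7 and 84.04 CPM in shRad21 libraries (log2 -0.87 ± 0.156, adjusted p = 0.00373, 7.68% of exonic bases shared). *Pmaip1* (Noxa), a trigger of apoptosis, had 11.8, 15.3 and 8.25 CPM in shLuci and 2.49, 3.54 and 2.65 CPM in shRad21 libraries (log2 -2.03 ± 0.238, adjusted p = 0.000353). Also lower were *Plk3* (-1.29, adjusted p = 0.00196), *Btg2* (-0.72, adjusted p = 0.00383) and *Sesn2* (-0.51, adjusted p = 0.00431), the last of which ATF4 induces too. *Gadd45a* (0.74, adjusted p = 0.0328, 19.1% of exonic bases shared, lost without each library but shLuci 3 and shRad21 1, adjusted p up to 0.108) was higher. *Ccng1* (272 and 216 CPM, adjusted p = 0.232) and *Sesn1* (201 and 186 CPM, adjusted p = 0.552) did not pass.

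Immediate early genes, which answer growth factor and stress signals within minutes, were lower for 10 of 19 and higher for 1 (median -0.84). *Myc* had 323, 372 and 368 CPM in shLuci and 177, 156 and 162 CPM in shRad21 libraries (log2 -1.11 ± 0.0874, adjusted p = 3.18e-05). *Dusp2*, a phosphatase that ends ERK signaling, had 143, 168 and 145 CPM in shLuci and 59.9, 65.02 and 51.1 CPM in shRad21 libraries (log2 -1.37 ± 0.104, adjusted p = 2.49e-05). The AP-1 members *Junb* (-0.99, adjusted p = 0.000614, 7.52% of exonic bases shared) and *Jund* (-0.84, adjusted p = 0.00237, 52.6% of exonic bases shared) and the survival gene *Ier3* (-1.09, adjusted p = 0.00289) fell. *Dusp1* (0.46, adjusted p = 0.0363, lost without each library but shLuci 3 and shRad21 1, adjusted p up to 0.177, lost with all 12 libraries in 1 model, adjusted p = 0.0693) was called higher. *Klf6* (113 and 142 CPM, adjusted p = 0.0859, with the block 0.0079) and *Egr1* (89.3 and 92.7 CPM, adjusted p = 0.916) did not pass, and 2 genes were higher with the block or without shRad21 1. Of 38 interferon-induced genes, 5 were lower and 1 higher (median -0.23, -0.36 without shLuci 1, -0.13 without shLuci 2, -0.091 without shRad21 1), 15.8% of the list beside 14.2% of all genes. With the block 14 were lower and 2 higher, and the lower calls numbered 2 without shLuci 2, 3 without shRad21 1, 8 without shLuci 3. *Ly6e*, a surface protein gene, had 1050.5, 1314 and 1362 CPM in shLuci and 430.3, 573 and 578 CPM in shRad21 libraries (log2 -1.24 ± 0.133, adjusted p = 0.000221). *Cxcl10* (-2.34, adjusted p = 0.000848, 5.91% of exonic bases shared), *Bst2* (-0.48, adjusted p = 0.0128, lost without shLuci 2 or shRad21 1, adjusted p up to 0.0661), *Ifi27l2a* (-1.01, adjusted p = 0.00977, lost without shLuci 2, adjusted p = 0.0573) and *Gbp3* (-0.82, adjusted p = 0.0202, lost without each library but shLuci 3 and shRad21 2, adjusted p up to 0.107) were lower and *Ifit2* (0.45, adjusted p = 0.0105, lost with all 12 libraries in 1 model, adjusted p = 0.075) higher. *Ifi203* (244 and 222 CPM, adjusted p = 0.547) and *Tap1* (216 and 182 CPM, adjusted p = 0.0609, with the block 0.033) did not pass.

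Some called genes were neighbours. Adjacent tested genes that were all called in the same direction formed 10 runs of at least 4 genes, 52 genes in all, 9 runs lower and 1 higher. This is a description, since no test of clustering was made, and several runs hold families of related genes. The longest held 10 genes over 200 kb of chromosome 6 (chr6:48647234-48847071), from *Gimap8* to *Tmem176a*. Gimap genes encode GTPases of lymphocyte survival, and all 7 tested were lower (median -0.80). *Gimap8* had 71.7, 78.9 and 93.3 CPM in shLuci and 15.4, 22.1 and 19.7 CPM in shRad21 libraries (log2 -2.10 ± 0.141, adjusted p = 1.53e-05). *Gimap6*, the member with the highest CPM, had 355, 378 and 410.1 CPM in shLuci and 224, 266 and 277 CPM in shRad21 libraries (log2 -0.58 ± 0.0972, adjusted p = 0.00274). The others were *Gimap9* (-0.64, adjusted p = 0.000957), *Gimap4* (-1.02, adjusted p = 0.00176), *Gimap5* (-0.80, adjusted p = 0.000288), *Gimap7* (-1.26, adjusted p = 0.0076) and *Gimap1* (-0.38, adjusted p = 0.0157, 36.02% of exonic bases shared, lost without shRad21 1, shRad21 2 or shRad21 3, adjusted p up to 0.0785). The antisense gene *Gimap1os* (-0.76, adjusted p = 0.0051, 35.7% of exonic bases shared) shares exonic sequence with *Gimap1*, and reads from the shared part cannot be told apart. The run ended with the membrane protein genes *Tmem176b* (-0.51, adjusted p = 0.00532) and *Tmem176a* (-0.32, adjusted p = 0.0305, lost without each library but shLuci 3 and shRad21 3, adjusted p up to 0.138).

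A run of 8 lower genes covered 195 kb of chromosome 11 (chr11:83511736-83706268), and each of the 8 passed under every alternative. It holds the CC chemokines, which attract leukocytes, and genes between and beside them that are no chemokines. *Ccl9* fell from 320.0 ± 84.3 to 54.3 ± 18.3 CPM (log2 -2.56 ± 0.245, adjusted p = 0.000107). *Ccl5* had 32.4, 38.9 and 25.5 CPM in shLuci and 1.75, 4.06 and 2.41 CPM in shRad21 libraries (log2 -3.58 ± 0.255, adjusted p = 1.91e-05). *Ccl6* (-3.61, adjusted p = 0.000596), *Ccl3* (-2.20, adjusted p = 1.53e-05) and *Ccl4* (-2.22, adjusted p = 0.000153) fell alike. At the ends lay *Wfdc17*, a whey acidic protein family gene, with 10.8, 5.36 and 2.98 CPM in shLuci and 0.467, 0.287 and 0.335 CPM in shRad21 libraries (log2 -4.08 ± 0.492, adjusted p = 0.000415), and *Heatr9*. The latter had 22, 20 and 24 reads in shLuci and 0, 1 and 1 in shRad21 libraries, a ratio of 42.3 (95% interval 11.2 to 356, exact, counting error only). The noncoding *E230016K23Rik* (-2.66, adjusted p = 0.00318) lay in between.

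The 1 higher run held 5 genes on chromosome 13 (chr13:3634032-4252843): *Asb13* (0.54, adjusted p = 0.00774), *Calm4*, the exchange factor gene *Net1* (0.33, adjusted p = 0.0239, lost without shRad21 1, shRad21 2 or shRad21 3, adjusted p up to 0.0794), *Akr1c13* (0.48, adjusted p = 0.0195, lost without shLuci 2, shRad21 1 or shRad21 3, adjusted p up to 0.084) and *Akr1c19*. *Calm4* thus lay between genes with far smaller changes. On chromosome 10, *Tnfaip3* (-1.10, adjusted p = 0.000638), which encodes the NF-κB inhibitor A20, stood in a run with the interferon γ receptor *Ifngr1* (-0.61, adjusted p = 0.000872), *Il20ra* (-2.13, adjusted p = 0.000803) and *Slc35d3* (-2.14, adjusted p = 6.74e-05). The last, a transporter gene, had 43.4, 37.6 and 33.9 CPM in shLuci and 9.57, 10.8 and 5.90 CPM in shRad21 libraries. Chromosome 10 also had *Lrrc75b* (-1.66, adjusted p = 0.0222, lost without each library but shLuci 3 and shRad21 2, adjusted p up to 0.111, lost with DESeq2, adjusted p = 0.0612 or all 12 libraries in 1 model, adjusted p = 0.0803), *Ggt1* (-1.13, adjusted p = 0.049, lost without each library but shLuci 1, adjusted p up to 0.195, lost with DESeq2, adjusted p = 0.0578, scaling by library size, adjusted p = 0.0519 or all 12 libraries in 1 model, adjusted p = 0.128), *Ggt5* (-0.70, adjusted p = 0.00171) and *Susd2* (-2.33, adjusted p = 0.000814). Chromosome 1 had *Kif21b* (-0.49, adjusted p = 0.0324, lost without shLuci 2, shRad21 1 or shRad21 2, adjusted p up to 0.107), *Inava* (-2.44, adjusted p = 0.00277, 32.03% of exonic bases shared), *Gm26781* (-3.44, adjusted p = 0.000222, 36.97% of exonic bases shared) and *Camsap2* (-1.63, adjusted p = 0.00208). The last, a microtubule minus-end gene, had 8.89, 8.25 and 6.14 CPM in shLuci and 3.62, 2.10 and 1.74 CPM in shRad21 libraries. Chromosome 16 had *Heg1* (-0.28, adjusted p = 0.0464, lost without each library but shLuci 1 and shLuci 3, adjusted p up to 0.172, lost with scaling by library size, adjusted p = 0.0608 or no filter, adjusted p = 0.0524), *Gm15657* (-0.79, adjusted p = 0.0297, 33.1% of exonic bases shared, lost without each library but shLuci 1 and shRad21 1, adjusted p up to 0.11), *Muc13* (-0.49, adjusted p = 0.00517, 6.06% of exonic bases shared) and *Itgb5* (-0.85, adjusted p = 0.0108, lost without shLuci 2, adjusted p = 0.0557). The class II genes *H2-Ab1*, *H2-Aa* and *H2-Eb1* formed a run on chromosome 17 with *H2-Ob* (-1.02, adjusted p = 0.00079), and *Ppbp* and *Pf4* formed another on chromosome 5 with *Cxcl3* (-2.94, adjusted p = 0.000691) and *Cxcl2* (-1.98, adjusted p = 0.00725).

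**Figure D5:**
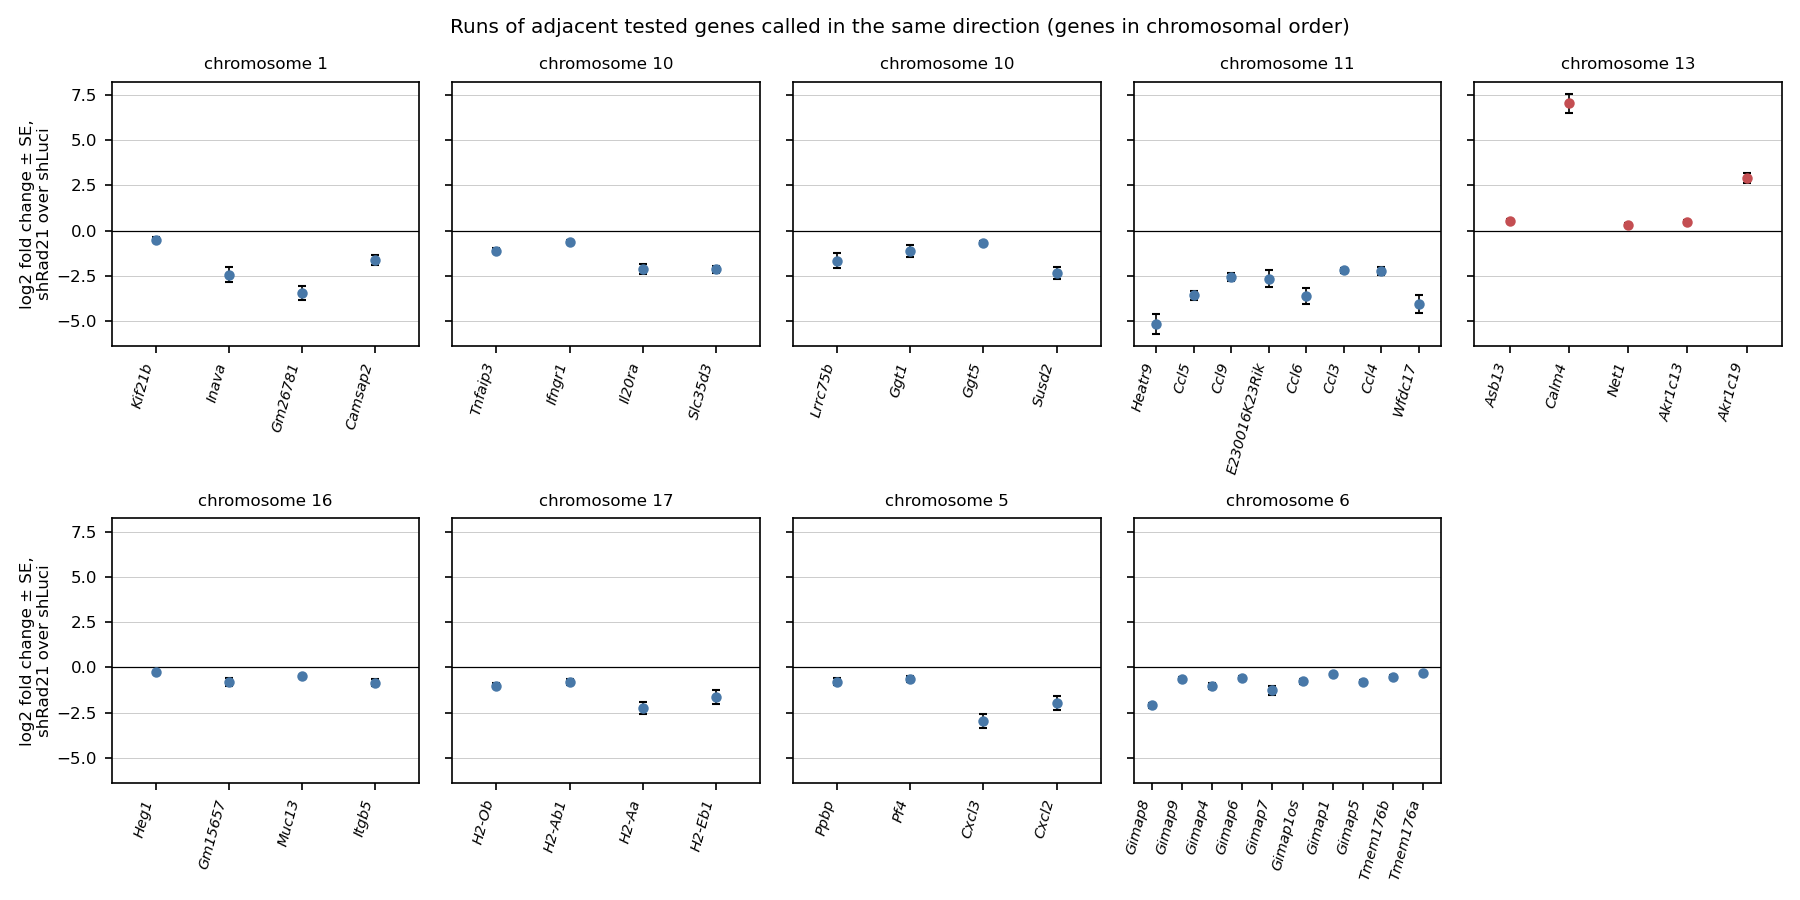
Log2 fold change with SE for the genes of 9 of the 10 runs of adjacent tested genes called in the same direction, in chromosomal order (blue lower, red higher in shRad21 cells). The values differ widely within a run, from 0.33 for *Net1* to 7.05 for *Calm4* (a fitted value, on 3 control reads) on chromosome 13, and from -0.32 to -2.10 on chromosome 6.

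Imprinted genes, expressed from 1 parental copy, gave 4 lower and 1 higher call among 16 (median -0.15, -0.089 without shLuci 3, -0.091 without shRad21 2). The noncoding *Meg3*, expressed from the maternal copy on chromosome 12, had 6.91, 8.35 and 18.03 CPM in shLuci and 2.22, 2.01 and 3.08 CPM in shRad21 libraries (log2 -2.18 ± 0.341, adjusted p = 0.00172, 8.29% of exonic bases shared). *Rian*, from the same copy, had 5.002, 9.75 and 16.7 CPM in shLuci and 1.01, 1.82 and 3.08 CPM in shRad21 libraries (log2 -2.40 ± 0.436, adjusted p = 0.00404). *Dlk1*, the paternally expressed neighbour, fell from 13.8 ± 4.81 to 7.03 ± 0.396 CPM (log2 -0.98 ± 0.212, adjusted p = 0.0105). The parental origin of the reads was not measured. *Phlda2* (-0.75, adjusted p = 0.0121, lost without shRad21 2 or shRad21 3, adjusted p up to 0.0666) was lower too and the receptor gene *Igf2r* (0.76, adjusted p = 0.00142, lost with all 12 libraries in 1 model, adjusted p = 0.0882) higher. *Grb10* (218 and 193 CPM, adjusted p = 0.305) and *Sgce* (57.3 and 66.6 CPM, adjusted p = 0.357) did not pass. Among 23 clustered protocadherins, whose promoter choice depends on cohesin and CTCF in neurons, 1 was called higher, *Pcdhb16* (0.75, adjusted p = 0.0295, lost without any 1 library, adjusted p up to 0.0998, lost with all 12 libraries in 1 model, adjusted p = 0.123). With the block 2 were higher. In the list 0 were lower (median 0.40, 0.17 without shLuci 3, 0.13 with 10 counts required in every library), and *Pcdhgb6* (5.23 and 5.86 CPM, adjusted p = 0.552, 45.2% of exonic bases shared) and *Pcdhgb5* (2.76 and 2.77 CPM, adjusted p = 0.984, 31.5% of exonic bases shared) did not pass.

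The knockdown effect differed between culture and the reisolated cells for 796 of 17050 genes in the 12-library model (4.67%), more negative in culture for 517 and more positive for 279. Library kit, sorted population and lane differ along with the setting and cannot be told apart from it. Of the 20 amino acid response genes, 6 passed, *Asns* among them, with an effect of 0.60 in vivo, a difference of -2.23 (interaction adjusted p = 0.00186). The median effect of these genes in vivo was 0.0012, against 0.11 for sterol synthesis, where 4 genes passed, and 0.24 for immediate early genes, where 8 passed. For stem cell genes the in vivo median was 0.62, with 7 differing, and for monocyte markers -1.03, with 2. The collagen *Col18a1* had an effect of 1.04 in vivo, a difference of -3.47 (interaction adjusted p = 0.000189). The medians of the stem cell and monocyte lists thus had the same sign in vivo, and those of the amino acid, sterol and immediate early lists were at or above 0.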

How the data were processed

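The series holds 12 RNA-seq libraries, of which the 6 of the culture experiment were compared (TruSeq RNA v2 libraries, 1 sequencing lane). The authors deposited raw read counts per Ensembl gene, and the submitters' processing notes name bcl2fastq 1.8.4, FastQC 0.11.3, TopHat2 2.0.11, HTSeq 0.6.1 and DESeq2 1.16.1. The annotation release and the strand setting of the counting are not given in the sources used here. Gene names and coordinates (GRCm38) came from GENCODE M21, which matched 45229 of 46078 gene identifiers, and promoters from RefSeq (GRCm38.p6).

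The counts were fitted with edgeR 4.0.16 (TMM, filterByExpr with a minimum count of 10 and a minimum total of 15, quasi-likelihood test) on R 4.3.3, p-values were adjusted by Benjamini and Hochberg, and genes below 0.05 were called. The edgeR test in culture with and without the block, DESeq2 and the interaction test were also run on simulated counts. These were drawn independently for each library, with no effect shared by a replicate number, and the other settings were not simulated. DESeq2 1.42.0, other scalings and filters, a replicate block, a 12-library model and the omission of each library were the alternatives. The 12-library model with a term for each group gave the effects in vivo and the interaction. Deviations from the group means correlated at 0.262, 0.216 and 0.251 within replicate numbers and at -0.322 to 0.0686 across numbers. Deviations from a mean of 3 libraries are not independent of each other, so these values do not establish that the numbers pair the samples. The block was therefore kept as an alternative. Replicates differed by far more than counting noise (chi-square per degree of freedom 5.73 to 20.7), so none was taken as a duplicate. Libraries of 15235129 to 29846689 counts put 3 counts at 0.101 to 0.197 CPM, and intervals and this floor cover counting error only.

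The lists and the comparison were chosen with earlier results of these data known. Named were *Rad21*, the 10 largest changes each way among called genes whose groups did not overlap and whose mean log2 CPM was 1 or more, in each list the 5 called genes each way with the lowest adjusted p and the 2 most abundant that did not pass, the genes of neighbour runs, and the 5 genes each way with the lowest interaction p. *Asns*, *Gars*, *Slc3a2*, *Slc7a1*, *Slc1a5*, *Hmgcs1*, *Atf4*, *Vldlr* and the sort markers were added after their values were seen. Some genes that this rule names, and 1 neighbour run, are not reported here.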

Additional observations from a re-analysis of the deposited data

Results flagged for a closer look

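For 796 of 17050 genes the knockdown effect differed between cultured and reisolated cells by the interaction test of edgeR (adjusted p under 0.05, 12-library model). Library kit, sorted population, lane and setting differ between the experiments and cannot be told apart. The 5 genes each way with the lowest interaction p-values were looked at for this difference. The log2 fold changes had opposite signs in both settings for *Gm10419*, -2.43 in culture and 2.07 in vivo, a difference of -4.50 (SE 0.292, adjusted p = 3.44e-06), for *Ehd3*, -1.41 in culture and 1.71 in vivo, a difference of -3.11 (SE 0.276, adjusted p = 4.23e-05), a gene of endosome recycling, for *Clec10a*, 1.85 in culture and -2.65 in vivo, a difference of 4.50 (SE 0.458, adjusted p = 0.000107), a lectin of macrophages and dendritic cells, and for *Gfi1*, 0.98 in culture and -0.98 in vivo, a difference of 1.96 (SE 0.180, adjusted p = 4.78e-05). The same held for *Vim*, the intermediate filament gene, 0.50 in culture and -0.46 in vivo, a difference of 0.96 (SE 0.0956, adjusted p = 9.38e-05), for *Tpm4*, a tropomyosin of platelets, 0.28 in culture and -1.62 in vivo, a difference of 1.91 (SE 0.167, adjusted p = 4.23e-05, 6.08% of exonic bases shared), which did not pass in culture (adjusted p = 0.0729, with the block 0.027), and for the smooth muscle kinase *Mylk*, -0.096 in culture and 1.55 in vivo, a difference of -1.65 (SE 0.147, adjusted p = 4.23e-05, 6.85% of exonic bases shared), which did not pass in culture either. For *Clu* (clusterin), 1.27 in culture and 5.30 in vivo, a difference of -4.03 (SE 0.308, adjusted p = 1.66e-05), *Vwf*, 0.79 in culture and 3.14 in vivo, a difference of -2.35 (SE 0.215, adjusted p = 4.78e-05), and the calponin *Cnn3*, -0.80 in culture and -3.43 in vivo, a difference of 2.63 (SE 0.223, adjusted p = 4.23e-05, 17.7% of exonic bases shared), the direction was shared and the change larger in vivo.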

How the results depend on the processing

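The 13 alternatives for the culture comparison (DESeq2, other scalings, filters, the replicate block, all 12 libraries in 1 model, and each library left out) gave 1352 to 3186 called genes, and the *Rad21* log2 fold change stayed between -1.58 and -1.46. With 1 library left out, 1352 to 2817 genes were called, 549 to 1279 higher and 803 to 1538 lower, and the knockdown effect differed between experiments for 492 to 845 genes. It did so for 492 without shRad21 culture 2, 495 without shLuci culture 2, 512 without shRad21 in vivo 3 and 525 without shRad21 in vivo 1. The replicate block gave 1447 genes called higher, and apart from the calls given with it above it changed no other call of a named gene. Medians of lists moved by more than the spread between libraries when 10 counts were required in every library, which leaves fewer genes: -0.095 for amino acid carriers, -0.51 for collagens and laminins, -0.023 for matrix proteases, -0.074 for receptor tyrosine kinases, -0.29 for granule genes, -1.12 for monocyte markers, -1.13 for dendritic markers, -0.0010 for mast cell genes, -0.62 for immediate early genes and 0.13 for protocadherins. With scaling by library size the median of lymphoid genes was -0.65. Over the libraries left out in turn, medians ranged from 0.054 to 0.14 for cohesin genes, -0.17 to -0.059 for sterol control, -0.26 to -0.17 for amino acid carriers, -0.41 to -0.22 for tRNA synthetases, -0.29 to -0.19 for rhodopsin-type receptors, 0.066 to 0.31 for RGS genes, -0.33 to 0.14 for collagens and laminins, -0.010 to 0.24 for other matrix genes, -0.30 to 0.19 for matrix proteases, -0.16 to 0.081 for guidance genes, -0.47 to -0.15 for receptor tyrosine kinases, -0.098 to 0.017 for cytokine receptors, -0.055 to 0.12 for TGF-β receptors, -0.12 to 0.069 for Notch and Wnt receptors, -0.11 to 0.11 for prostanoid synthesis, 0.37 to 0.52 for stem cell genes, -1.58 to -1.16 for monocyte markers, -0.33 to 0.057 for erythroid markers, 0.20 to 1.02 for mast cell genes, -0.70 to -0.66 for lymphoid genes, -0.53 to -0.32 for p53 targets, -0.99 to -0.73 for immediate early genes, -0.83 to -0.72 for Gimap genes, 0.17 to 0.42 for protocadherins and -0.18 to -0.089 for imprinted genes. Of 248 named genes that were called, 184 were called under every alternative. None of these 248 changed direction under any of them. Among named genes that did not pass, the sign of the log2 fold change turned for some, with scaling by library size, *Csf2rb* (0.013), *Lta4h* (0.0046) and *Smc1a* (0.016), with no filter, *Csf2rb* (0.0096), *Lta4h* (0.00079) and *Smc1a* (0.012), with all 12 libraries in 1 model, *Itgb1* (-0.0039) and with the replicate block, *Pcdhgb5* (-0.0086). It also turned with a library left out, with ranges over the 6 omissions of *Aqp1* (-0.33 to 0.057), *Cd48* (-0.053 to 0.32), *Csf2rb* (-0.11 to 0.13), *Ctss* (-0.017 to 0.45), *Dars* (-0.090 to 0.038), *Egr1* (-0.14 to 0.24), *Fasn* (-0.069 to 0.12), *Gzmb* (-1.49 to 0.079), *Ifi203* (-0.27 to 0.0067), *Itgb1* (-0.027 to 0.037), *Lpar6* (-0.11 to 0.086), *Lta4h* (-0.073 to 0.089), *Ltf* (-0.51 to 0.36), *Lyz2* (-0.060 to 0.22), *Mycn* (-0.14 to 0.0058), *Nfe2* (-0.0091 to 0.096), *Pcdhgb5* (-0.14 to 0.15), *Pla2g4a* (-0.085 to 0.14), *Sema7a* (-0.089 to 0.061), *Slc38a2* (-0.21 to 0.080), *Slc6a6* (-0.022 to 0.33) and *Smc1a* (-0.041 to 0.026). The cause of these movements was not tested. Genes with fewer than 10 counts a library carry the widest errors, and the depth allows no statement on genes that did not pass the filter.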

Other observations

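Of the 1042 genes on the 39 lists, 312 had too few counts for a test. They included 40 collagen and laminin genes, 36 receptors of the rhodopsin type, 35 protocadherins and 30 matrix proteases. *Adgre1*, which encodes the macrophage antigen F4/80, had 71 reads in the shLuci and 5 in the shRad21 libraries together, with 48 of them in 1 library. Among receptors, *Chrm3*, a muscarinic acetylcholine receptor, had 8 and 35 reads, and *Htr7*, a serotonin receptor, 20 and 3. *Col1a2*, a chain of fibrillar collagen, had 37 and 10 reads, and *Mertk*, a receptor for apoptotic cells, 18 and 33. These examples follow no naming rule. Other untested receptors had even counts, such as *Agtr1a* with 21 and 22 reads and *Adora1* with 15 and 14. No test was made for any of these genes, and no change is read from their counts.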
